A study of Macaca mulatta with 6 samples.

Results

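The genes described here are targets of the transcription factor p53 and regulators of apoptosis, chosen by name. The list held 32 genes: 19 p53 targets and, besides those, members of the BCL2 family, caspases, the apoptosome scaffold and inhibitors of apoptosis. Rows of the deposited tables with these symbols were found for 31 of the 32, out of 30246 gene rows in all, and each symbol had 1 row. No row carried the symbol BBC3, which is treated apart. The list was read by role: targets that feed back on p53, repair DNA, handle metabolic stress or slow growth, then the death receptors, the BCL2 family, the caspases and the caspase inhibitors.

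The values come from RNA sequencing of 6 induced pluripotent stem cell lines of rhesus monkey (Macaca mulatta), made from fibroblasts, with the developmental stage of every line labelled embryo. The 4 naive lines, 2 labelled male and 2 female, were kept in the medium called 6SM. That medium was KnockOut DMEM with 15% serum replacement, N2 supplement, glutamine, non-essential amino acids and 2-mercaptoethanol, 10 ng/ml of human LIF and 4 ng/ml of bFGF. It also held 4 kinase inhibitors: 10 µM each of SB203580 (p38) and SP600125 (JNK), 0.5 µM of PD0325901 (MEK) and 3 µM of CHIR99021 (GSK3). The 2 primed lines, both male, were kept in hESM, which is D/F12 with 20% serum replacement and bFGF and has none of these inhibitors listed. Feeder cells were taken off before RNA was extracted. Donors are not given in the labels, so a p-value covers only the spread among these lines, and state, medium and inhibitors cannot be told apart.

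Stress such as DNA damage stabilises p53, which then switches on genes that halt the cell cycle, repair DNA or kill the cell, and MDM2, itself a target, marks p53 for destruction. In the mitochondrial pathway, BH3-only proteins neutralise the anti-apoptotic members of the BCL2 family or activate BAX and BAK1, which open the outer mitochondrial membrane and release cytochrome c. Cytochrome c assembles APAF1 and CASP9 into the apoptosome, while death receptors such as FAS activate CASP8 at the cell surface. Pluripotent stem cells are known for dying readily after DNA damage.

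Levels are given as FPKM (fragments scaled to transcript length and to the mapped fragments of the library), deposited for each library with error bounds. From these bounds the number of fragments behind a value was estimated and is called effective fragments. It reflects only the error stated within a library and is not a read count. It did not always follow the level. CASP8 had 82.4 at 5.45 FPKM in female naive 1, but 69.7 at 10.6 FPKM in female naive 2. Library totals were 1754857 and 1478692 effective fragments in male naive lines and 7607125 to 10013491 in the other 4, so low depth goes with the male naive group. Of the 31 genes, 21 rested on fewer than 50 effective fragments in both male naive libraries. All 31 passed the filter of 1 FPKM or more in at least 2 libraries, as did 13685 rows in all. Of 7 pluripotency markers 6 had a row, and SOX2 (85.3 to 141 FPKM), POU5F1 (109 to 1160), SALL4 (48 to 98.8) and LIN28B (46.4 to 79) were found in every library. NANOG was listed at 0 in male naive 1 and primed 2 and reached 0.917 FPKM in primed 1, 1.58 in male naive 2 and 5.02 and 29.5 in female naive lines. Its row spans 309 bp of a scaffold without a chromosome and had 2 effective fragments or fewer in each male naive and primed library. These low values therefore do not show that the gene was silent. TDGF1 was listed at 0 in primed 1 and at 0.818 in primed 2, against 11.9 to 111 FPKM in naive lines. Of 14 fibroblast and feeder markers 13 had a row, and without VIM, which stem cells also express, their summed level was 129 and 98.4 FPKM for male naive lines, 226 and 342 for female naive lines and 32.5 and 290 for primed lines. In female naive 2 most of the sum was THY1 (167) and COL1A1 (153), with COL3A1 at 4.64, LUM at 0.0739 and POSTN at 0.261. In primed 2 these 5 were at 32, 135, 28.6, 19.9 and 13 FPKM. In the male naive libraries DCN and FAP were at 0, but COL1A1 was at 53.1 and 42, THY1 at 40.9 and 33.3 and PDGFRB at 8.83 and 8.15 FPKM. DCN and FAP rested on 0.7 effective fragments each even in the deeper female naive 2, so their zeros do not show absence. Among the 13 markers, VIM fell from primed to naive lines and the other 9 tested ones were not called. Of 4 tested neural markers MAP2 and NCAM1 fell, and the 4 with a row summed to 57.2 and 47.3 FPKM for male naive lines, 20.1 and 15.6 for female naive lines and 96.7 and 72.7 for primed lines; the part of these cells in the results was not tested.

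Between naive and primed lines, the BH3-only gene PMAIP1, the caspase gene CASP8, the cytokine gene GDF15 and the survival gene MCL1 were higher in the naive state, and the repair gene DDB2 and the survival gene BCL2L2 were lower. These are bulk RNA levels, so fewer cells with a transcript and less of it per cell cannot be told apart. These were the 6 of 31 genes called by limma at a Benjamini-Hochberg adjusted p under 0.05 (19.4%), against 11.3% of all tested rows. Of the 31, 4 rose (12.9%, against 6.72% of all rows) and 2 fell (6.45%, against 4.59%). Over all rows that is 920 calls higher and 628 lower, which became 693 and 878 with upper-quartile scaling, where 3 of the 31 genes rose and 2 fell. The median log2 difference of the 31 was 0.05, beside 0.03 over all tested rows. Among the p53 targets 2 of 18 tested genes rose and 1 fell, with a median of -0.17, so the list held called genes in both directions. Without a threshold, the 4 naive libraries did not overlap the 2 primed ones for 9 of 31 genes (29%), against 34.8% of all rows, a share of the genes no higher than the background.

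**Figure D1:**
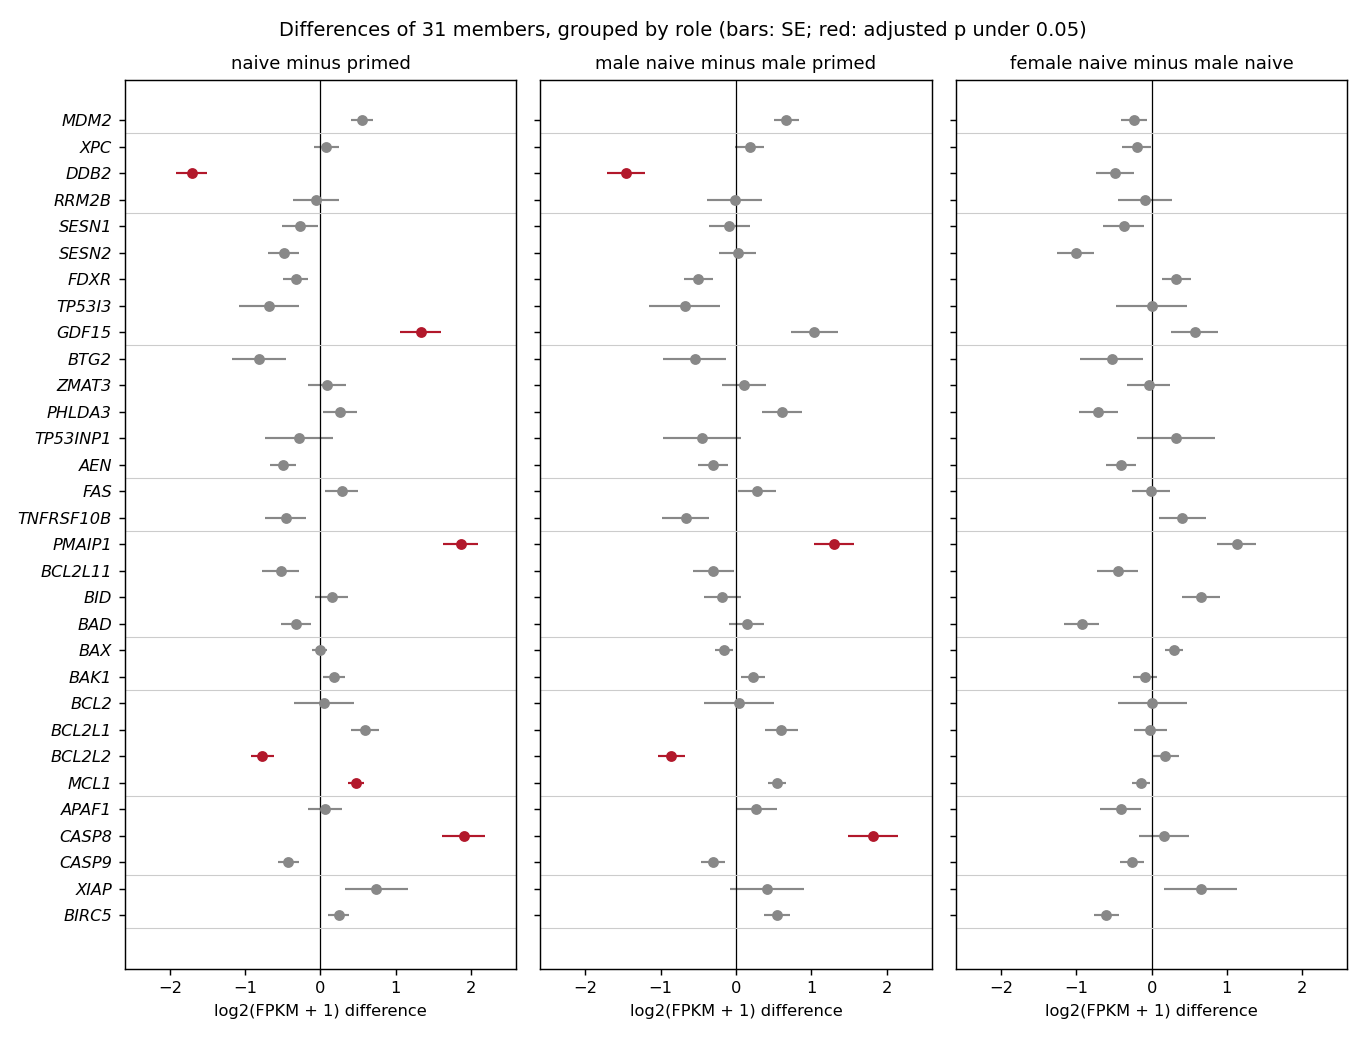
Log2(FPKM + 1) differences of the 31 genes in 3 comparisons, ordered by role, with points for the estimate, bars for its standard error and red for an adjusted p under 0.05. Red points stand at 4 genes to the right of 0 and 2 to the left in the first panel, 2 on either side in the second and none in the third.

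MDM2, the ubiquitin ligase that limits p53, was at 21.1 and 25.1 FPKM for male naive lines, 18.2 and 20.8 for female naive lines and 13.6 and 14.6 for primed lines. All 4 naive libraries lay above both primed ones. The log2 difference was 0.55 (SE 0.15, limma adjusted p = 0.0608), just outside the threshold, and MDM2 was called only with the stricter filter (0.0497) and with precision weights (0.0498) among the 15 alternatives run.

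DDB2 (ENSMMUG00000022964, chromosome 14, 24880013 to 24906265 in the coordinates of the deposited tables, whose genome build is not given in the sources used here) recognises ultraviolet damage for nucleotide excision repair. Its level was 11.5 and 12.2 FPKM for male naive lines, 8.48 and 7.9 for female naive lines and 27 and 44 for primed lines. Both primed libraries stood above all 4 naive ones. DDB2 fell by 1.71 on the log2(FPKM + 1) scale in naive lines (SE 0.21, limma adjusted p = 0.0111), and the naive mean was 0.283 times the primed mean. The other repair genes were not called. XPC, a damage sensor of the same repair pathway, was at 20.5 to 29 FPKM over the 6 libraries with overlapping groups (log2 difference 0.08, SE 0.17). RRM2B, the p53-induced subunit of ribonucleotide reductase, which makes DNA precursors, was at 7.96 and 18.3 FPKM in the primed pair and between 11.1 and 12.8 in naive lines (-0.06, SE 0.31), on 1.7 and 8.4 effective fragments in the male naive libraries.

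GDF15 (ENSMMUG00000021180, chromosome 19, 17991882 to 17995169), a secreted stress cytokine of the TGF-beta superfamily, went the other way from DDB2. It was at 5.46 and 6.89 FPKM for male naive lines, 8.34 and 11 for female naive lines and 1.69 and 3.47 for primed lines, so the groups did not overlap. GDF15 rose by 1.33 (SE 0.27, limma adjusted p = 0.0337), on 16 and 17 effective fragments in male naive and 28 and 45 in those of primed lines. No other gene of the redox and metabolism targets was called. SESN1 and SESN2 encode sestrins, which restrain mTORC1 signalling. SESN2 was at 17.8 and 14.9 FPKM for male naive lines, 6.63 and 8.63 for female naive lines and 19.4 and 13.3 for primed lines, so that the female naive libraries lay below the other 4 (naive minus primed -0.49, SE 0.21, limma adjusted p = 0.177). SESN1 ranged from 6.06 to 12.4 FPKM and FDXR, a mitochondrial ferredoxin reductase, from 8.78 to 15.3, both with overlapping groups. TP53I3, a quinone oxidoreductase, differed within groups as much as between them, at 14.3 and 7.95 FPKM for male naive lines, 14.4 and 7.84 for female naive lines and 11.9 and 26.2 for primed lines.

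None of the 5 growth arrest and signalling targets was called. BTG2, an antiproliferative gene, had the largest estimated difference among them (-0.82, SE 0.36, limma adjusted p = 0.189). Its high value came from 1 library, primed 1, at 23.7 FPKM, while primed 2 was at 9.99 and the naive lines at 5.21 to 11.3. AEN, an exonuclease that takes part in apoptosis, was at 30.4 and 25.6 FPKM for male naive lines, 20.3 and 21.1 for female naive lines and 40.6 and 29.4 for primed lines (-0.50, SE 0.17, limma adjusted p = 0.105). ZMAT3, an RNA-binding zinc finger protein, and PHLDA3, an inhibitor of AKT, had overlapping groups with differences of 0.09 (SE 0.25) and 0.26 (SE 0.22). The PHLDA3 row spans 315 bp and rested on 8 and 10 effective fragments in male naive libraries. TP53INP1, which promotes cell death and autophagy, was low throughout, at 0.567 to 3.66 FPKM on 17.1 effective fragments or fewer.

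**Figure D2:**
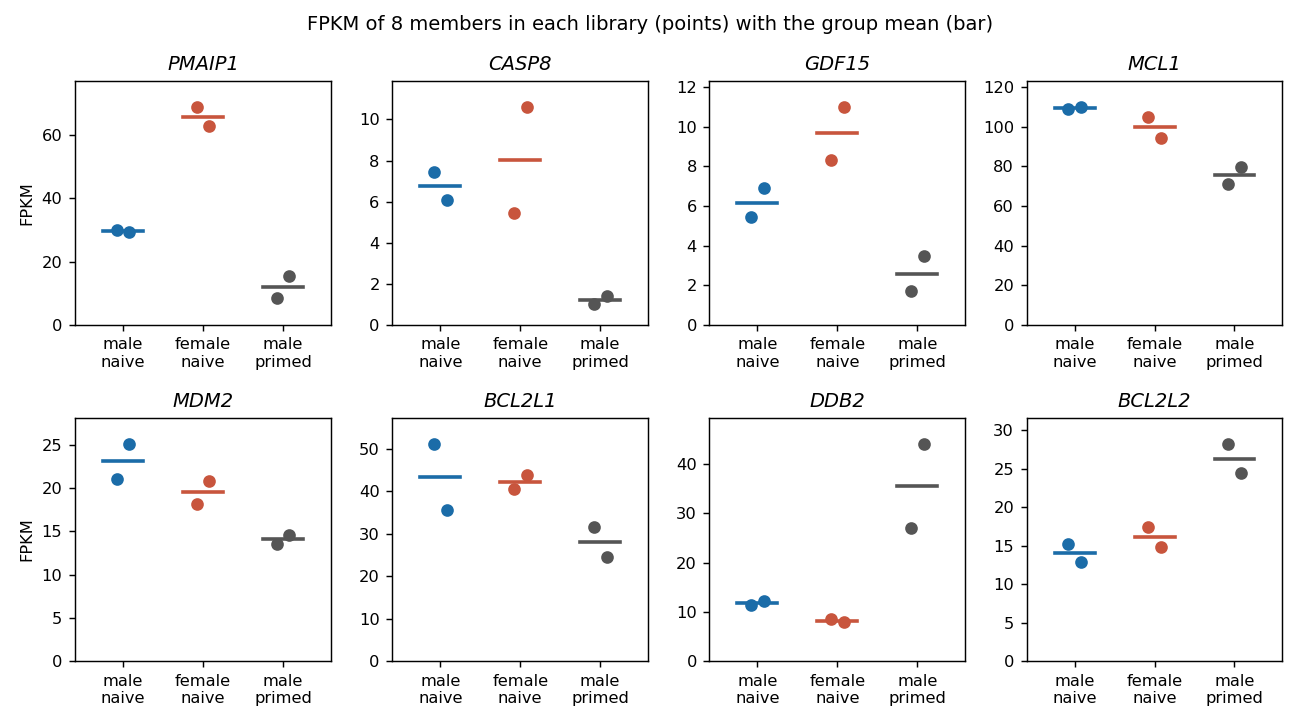
FPKM of 8 genes in each library (points, 2 per group) with the group mean (bar), each panel on its own axis from 0. All 4 naive libraries lie above both primed ones for PMAIP1, CASP8, GDF15, MCL1, MDM2 and BCL2L1, and below both for DDB2 and BCL2L2.

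PMAIP1 (ENSMMUG00000012622, chromosome 18, 53156050 to 53160285), which encodes the BH3-only protein NOXA, had among the p53 targets the largest rise. It was at 29.9 and 29.3 FPKM for male naive lines, 68.9 and 62.9 for female naive lines and 8.45 and 15.4 for primed lines. The 3 groups were fully separate, with female naive highest and primed lowest. PMAIP1 rose by 1.86 from primed to naive lines (SE 0.23, limma adjusted p = 0.0104), the naive mean being 4 times the primed mean. It was well covered, on 122 to 1756 effective fragments per library. The NOXA protein binds chiefly the MCL1 protein. The ratio of PMAIP1 to MCL1 FPKM was 0.27 ± 0.00635 (SD, n = 2) for male naive lines, 0.661 ± 0.00433 for female naive lines and 0.156 ± 0.0531 for primed lines. This ratio of RNA levels has no test and does not give the balance of the proteins.

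The other BH3-only genes were not called. BCL2L11, which encodes BIM, was at 5.19 to 9.62 FPKM in naive and 10.8 and 8.34 for primed lines (-0.53, SE 0.24, limma adjusted p = 0.19), on 7.1 effective fragments in each male naive library. BID, which links death receptors to mitochondria, was at 12.2 and 12.8 FPKM for male naive lines, 17.1 and 24.2 for female naive lines and 17.4 and 11.7 for primed lines. BAD, which is held inactive by phosphorylation, was at 17.7 and 15.6, 9.79 and 6.91, and 17.3 and 13 FPKM in the same order, in a row that overlaps that of GPR137. Female naive lines were above male naive ones for BID and below them for BAD, and for both genes the primed values overlapped those of the 4 naive lines. For BBC3, the BH3-only p53 target PUMA, the row ENSMMUG00000012466 carries the symbol only in a table of gene names and so lies outside the rule. This row was at 24.8 and 18.6 FPKM for male naive lines, 12.3 and 8.03 for female naive lines and 14.1 and 22.6 for primed lines, on 6.5 to 31.1 effective fragments, and its groups overlapped (-0.26, SE 0.26, limma adjusted p = 0.542).

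The effectors were not called and varied least. BAX was the highest of the 31 genes by mean FPKM (144), at 124 and 135 FPKM for male naive lines, 155 and 164 for female naive lines and 140 and 149 for primed lines (log2 difference -0.01, SE 0.10, limma adjusted p = 0.964). The primed values lay between those of the male and female naive lines. BAK1 was at 17.3 to 22.5 FPKM over the 6 libraries (0.18, SE 0.14). For these genes the highest library was 1.32 and 1.3 times the lowest, the smallest ratios among the 31.

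Among the anti-apoptotic BCL2 genes, MCL1 rose and BCL2L2 fell. MCL1 (ENSMMUG00000008221, chromosome 1, 128958157 to 128963201), a short-lived inhibitor of BAK1, was at 109 and 110 FPKM for male naive lines, 105 and 94.6 for female naive lines and 71.3 and 79.6 for primed lines. All naive libraries were above both primed ones, by a modest margin: the log2 difference was 0.47 (SE 0.11, limma adjusted p = 0.0445) and the naive mean 1.39 times the primed mean. BCL2L2 (ENSMMUG00000014746, chromosome 7, 86147194 to 86148958), which encodes BCL-w, was at 15.2 and 12.9 FPKM for male naive lines, 17.4 and 14.8 for female naive lines and 28.2 and 24.4 for primed lines. It fell by 0.77 (SE 0.15, limma adjusted p = 0.0314), with every naive library below both primed ones, on 21 and 15 effective fragments in the male naive libraries. BCL2L1, which encodes BCL-xL, was at 51.1 and 35.6, 40.5 and 43.8, and 31.6 and 24.5 FPKM in the same order. Its groups did not overlap either, but it was not called (0.59, SE 0.19, limma adjusted p = 0.0935). BCL2, the founding member, was low in all lines, at 0.635 to 2.27 FPKM on 20 effective fragments or fewer.

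**Figure D3:**
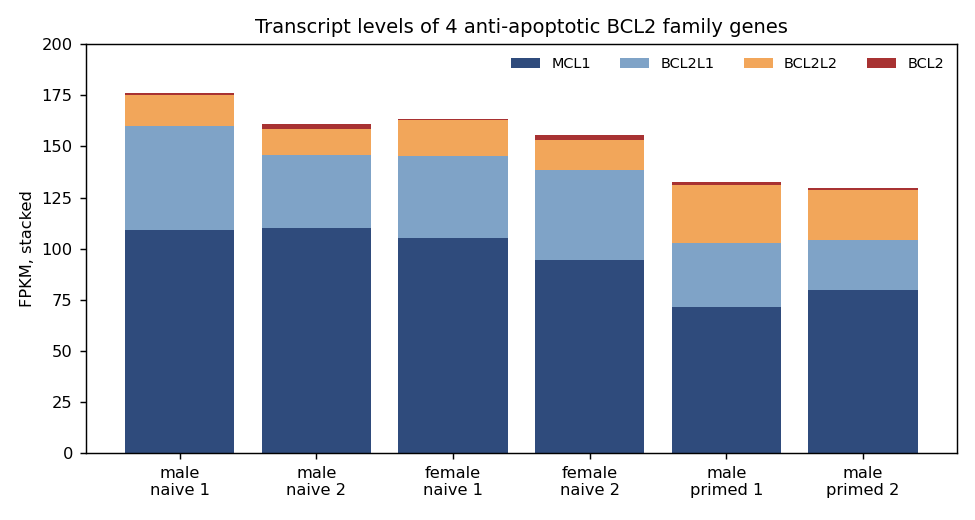
FPKM of MCL1, BCL2L1, BCL2L2 and BCL2 stacked for each of the 6 libraries. MCL1 is the largest part of every bar, and the BCL2L2 part is larger in the primed bars (21.3% and 18.8%) than in the naive ones (8.03% to 10.6%).

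The 4 genes together summed to 169 ± 10.6 FPKM (SD, n = 2) for male naive lines, 159 ± 5.46 for female naive lines and 131 ± 1.88 for primed lines. Of that sum BCL2L2 made up 8.33% ± 0.421 for male naive lines, 10.1% ± 0.787 for female naive lines and 20.1% ± 1.76 for primed lines. MCL1 made up 53.8% to 68.5% and BCL2L1 18.9% to 29%, with overlapping groups. BCL2L1 exceeded BCL2L2 by a ratio of 3.06 ± 0.434 in male naive and 2.65 ± 0.441 in female naive lines, whereas the ratio was 1.06 ± 0.0802 for primed lines. These sums and ratios are descriptions with no test.

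CASP8 (ENSMMUG00000031296, chromosome 12, 64988990 to 65048031), the initiator caspase of death receptor signalling, had an estimated difference close to that of PMAIP1. It was at 7.44 and 6.07 FPKM for male naive lines, 5.45 and 10.6 for female naive lines and 0.986 and 1.42 for primed lines. Every naive library was above both primed ones. CASP8 rose by 1.90 (SE 0.29, limma adjusted p = 0.0174), with a naive mean 6.14 times the primed mean, on 7.9 and 14.6 effective fragments in the primed libraries and 8.1 and 10.8 in the male naive ones. With a pseudocount of 0.1 the log2 difference was 2.5, since adding 1 compresses values this low. The CASP8 row overlaps 2 unnamed rows in the tables, so the authors' counting could have split reads among them.

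CASP9 was at 22.9 and 25.8 FPKM for male naive lines, 18.5 and 22 for female naive lines and 32.2 and 28.4 for primed lines, with no overlap but no call (-0.43, SE 0.14, limma adjusted p = 0.1). Its row overlaps 3 other rows. APAF1 was at 7.05 to 12.1 FPKM in all lines (0.06, SE 0.23). The death receptors were not called: FAS was at 3.48 to 5.93 FPKM (0.28, SE 0.22) and TNFRSF10B, a TRAIL receptor, at 8.9 to 17.8 FPKM in naive and 23 and 14.5 for primed lines (-0.46, SE 0.27). The FAS row overlaps that of ACTA2.

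BIRC5, which encodes survivin, a mitotic protein of the inhibitor of apoptosis family, was at 116 and 150 FPKM for male naive lines, 80.8 and 93.1 for female naive lines and 85.5 and 95.8 for primed lines. Male naive lines were the highest, and naive against primed was not called (0.24, SE 0.14, limma adjusted p = 0.311). The summed level of 13 other mitotic genes with a row was 1126 ± 4.38 FPKM (SD, n = 2) for male naive lines, 755 ± 84 for female naive lines and 905 ± 262 for primed lines, also highest in male naive lines. None of the 13 was called in any of the 3 comparisons. All 13 were lower in female than in male naive lines, as were 8320 of 13685 rows, with a median of -0.6 against -0.1. At an unadjusted limma p under 0.05 there were 8 of the 13, against 21.7% of all rows. BIRC5 differed by -0.6 between these lines (SE 0.17, limma adjusted p = 0.111). The part of the mitotic genes in the BIRC5 values was not tested. XIAP, a direct caspase inhibitor, was at 1.44 to 5.99 FPKM on 24 effective fragments or fewer, in a row that spans 468 bp of a scaffold without a chromosome (0.74, SE 0.42, limma adjusted p = 0.289).

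The calls of naive against primed lines depended on single libraries, although each of the 6 genes kept its direction in every alternative. DDB2 and PMAIP1 stayed called on leaving out any library other than female naive 2, without which their adjusted p was 0.0514 and 0.0511 and none of the 6 was called. CASP8 was also lost without male naive 1 (0.0623), male naive 2 (0.0594), primed 1 (0.0841) and female naive 2 (0.0502). GDF15 was lost without each library (0.0783 to 0.113) except primed 2, BCL2L2 without each of the 6 (0.0587 to 0.118) and MCL1 without each of the 6 (0.0558 to 0.134). Leaving out both shallow male naive libraries together kept DDB2 (-1.95, adjusted p = 0.0336), PMAIP1 (2.42, 0.0284) and CASP8 (1.98, 0.0497). BCL2L2 (0.101), GDF15 (0.0632) and MCL1 (0.174) were then lost. With sex ignored CASP8 (0.037) and DDB2 (0.0373) alone were kept, PMAIP1 being at 0.077, and with no filter on low values GDF15 (0.0694) and MCL1 (0.054) were lost. With upper-quartile scaling MCL1 was lost (0.36, adjusted p = 0.0774), and with the replicate number as a block likewise (0.0904).

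Within males, 4 of these 6 genes were called in the comparison of male naive with male primed lines, which uses the same primed libraries as the comparison above. PMAIP1 rose by 1.3 (SE 0.26, limma adjusted p = 0.047) and CASP8 by 1.82 (SE 0.33, 0.0369). DDB2 fell by 1.46 (SE 0.25, 0.0297) and BCL2L2 by 0.86 (SE 0.18, 0.0479). That is 12.9% of the 31 genes, against 5.39% of all tested rows, with 2 higher (6.45%, against 3.97%) and 2 lower (6.45%, against 1.42%; over all rows 543 and 195 calls, or 391 and 357 with upper-quartile scaling). The differences of GDF15 (1.04, SE 0.31, adjusted p = 0.107), MCL1 (0.54, SE 0.12, 0.0624) and MDM2 (0.67, SE 0.17, 0.0729) had the same sign and were not called.

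These male calls were close to the threshold. None was kept without male naive 1 (adjusted p 0.146 to 0.184) or male naive 2 (0.147 to 0.221), with the replicate block (0.0547 to 0.0783), with precision weights (0.0553 to 0.104) or with no filter on low values (0.0603 to 0.0813). PMAIP1 was lost with upper-quartile scaling (1.14, 0.0662) and median-of-ratios scaling (1.19, 0.0568), and with a pseudocount of 0.1 it (0.0539) and BCL2L2 (0.0515) were lost. Without primed 1 DDB2 alone was kept (-1.81, 0.0296), PMAIP1 being at 0.90 with an adjusted p of 0.0599, BCL2L2 at 0.125 and CASP8 at 0.116. Without primed 2 DDB2 (0.0481) and PMAIP1 (0.0155) were kept, and BCL2L2 (0.0712) and CASP8 (0.0744) were lost. CASP8 was the call kept without female naive 1 (0.046) or female naive 2 (0.0481), which enter this comparison through the shared spread, and the other 3 were then at 0.0741 to 0.104.

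Between female and male naive lines, grown in the same medium, limma called 0 of 31 genes at an adjusted p under 0.05, against 3.31% of all tested rows. At an unadjusted p under 0.05 there were 7 of 31, against 21.7% of all rows. PMAIP1 was nearest in adjusted p, at 65.9 ± 4.25 FPKM (SD, n = 2) in female and 29.6 ± 0.474 in male naive lines (log2 difference 1.13, SE 0.26, adjusted p = 0.0796). It was called without primed 1 (0.0219) and without primed 2 (0.0222). SESN2 was at 7.63 ± 1.42 FPKM in female and 16.3 ± 2.02 in male naive lines (-1.01, SE 0.24, limma adjusted p = 0.0861). BAD was at 8.35 ± 2.04 and 16.7 ± 1.5 (-0.93, SE 0.23, limma adjusted p = 0.093), on 18.1 and 14 effective fragments in the male naive libraries. The libraries of the sexes did not overlap for 19 of 31 genes (61.3%), against 57% of all rows, so this share was near the background. Of these genes 14 were lower in female lines (45.2%, against 37.6%) and 5 higher (16.1%, against 19.4%). No female primed line was analysed here. Both male naive libraries were shallow and donors are not given, so sex, donor and depth cannot be told apart in this comparison.

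**Figure D4:**
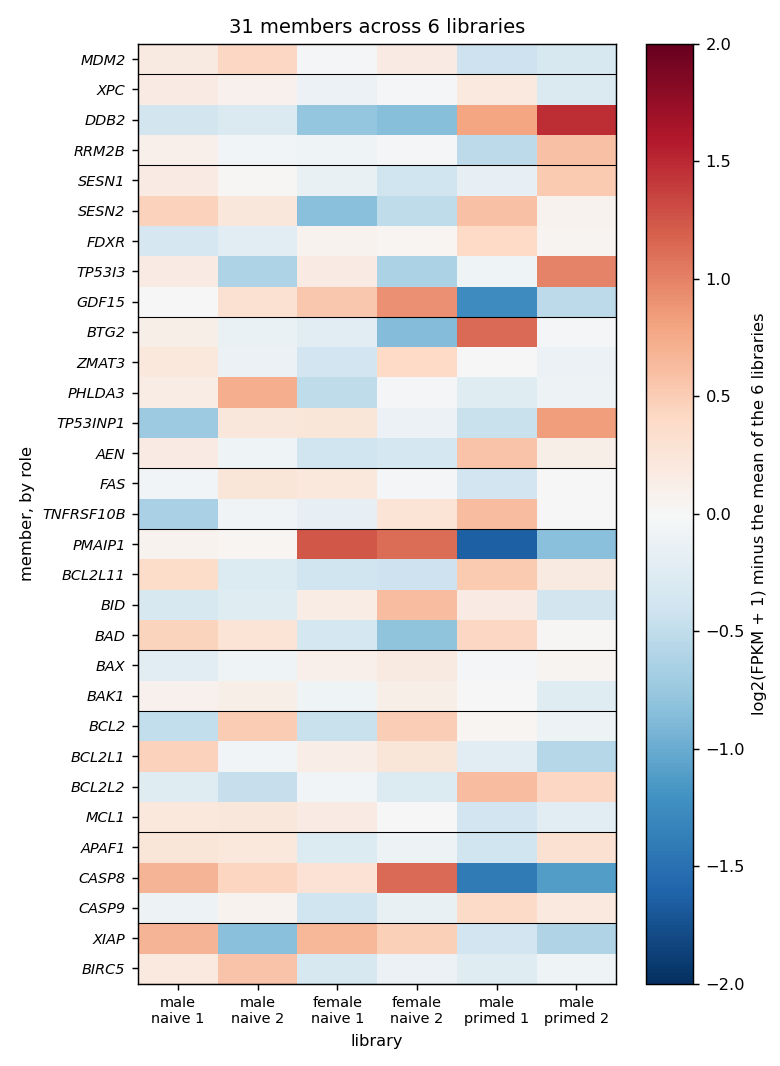
Log2(FPKM + 1) of the 31 genes (rows, by role) in each library (columns), less the mean of the gene over the 6 libraries, on a scale from -2 (blue) to 2 (red). DDB2 is red in both primed columns, CASP8, GDF15 and PMAIP1 are blue there, and TP53INP1 and TP53I3 are red in primed 2.

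The 2 primed libraries were also set side by side. With a 1.5-fold limit chosen after the values were seen, 8 of 31 genes were higher in primed 2 than in primed 1 (25.8%, against 17.5% of 13429 rows above 0 in both), and 7 of the 8 were p53 targets, as are 18 of the 31 genes. They were TP53INP1 (ratio 4.06), RRM2B (2.3), TP53I3 (2.2), GDF15 (2.05), PMAIP1 (1.83), SESN1 (1.68), DDB2 (1.63) and, outside the target list, APAF1 (1.72). BTG2 (0.421) and TNFRSF10B (0.631), both p53 targets, were lower by that limit, 6.45% of the genes against 11% of rows. The other p53 targets stayed within the limit. SESN2 (0.684), XPC (0.707), AEN (0.724), FDXR (0.775) and ZMAT3 (0.904) were lower in primed 2. MDM2 (1.07), BAX (1.06), FAS (1.41) and PHLDA3 were higher there. The p53 targets therefore did not move together within the pair. CDKN1A, the p53 target that encodes the cell cycle inhibitor p21, was named here after its values were seen: it was at 41.2 FPKM in primed 2, 10.4 in primed 1 and 6.75 to 14.2 in naive lines. CCNG1, another p53 target named after its values were seen, was at 281 FPKM in primed 2 and 286 in primed 1. Primed 2 was the library with more fibroblast marker RNA of the pair (290 against 32.5 FPKM without VIM), and the part of this in the ratios was not tested. Each ratio compares 1 library with 1 library and has no replicate check.

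Other genes of the pathway were mostly not called between naive and primed lines. Other p53 targets were listed by name, and their control by p53 was not tested here. Of the 17 tested, 0 rose and 1 fell, against 6.72% and 4.59% of all rows, with a median of 0.03. The 1 was CCNG2, a cyclin G gene linked to growth arrest, at 7.77 and 7.29 FPKM for male naive lines, 10.1 and 4.63 for female naive lines and 17.6 and 31.6 for primed lines (-1.58, SE 0.34, limma adjusted p = 0.0382). This call was lost without any 1 library (-1.99 to -1.18, adjusted p 0.052 to 0.136), with the replicate block (0.0726), with no filter (0.0766), with sex ignored (0.0632) and without both male naive libraries (0.0917). CDKN1A was not called (-0.89, SE 0.51, limma adjusted p = 0.289). Nor was CCNG1, the other cyclin G gene of that list, at 271 to 312 FPKM in naive and 286 and 281 for primed lines (0.03, SE 0.11, limma adjusted p = 0.881). By limma 0 of 7 other BCL2 family genes, 0 of 11 other caspase and apoptosome genes and 0 of 5 other death receptor genes were called. The same held for 0 of 3 other inhibitors of apoptosis, against 11.3% of all tested rows. At an unadjusted limma p under 0.05 there were 2, 4, 1 and 0, against 4235 of 13685 rows. Lists this short cannot show a share below that of all rows.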

How the data were processed

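RNA sequencing of 6 libraries, 2 per group, was analysed from the deposited gene tables. Titles and the gender label gave groups and library numbers. TopHat 1.3.0 was the aligner, per the submitters' processing notes, and the tables have the Cufflinks gene tracking layout, per the file headers. The authors computed the FPKM within each library and deposited it with error bounds. Quantifier version, genome build, annotation and strand setting were not given in the sources used here. FPKM keeps no counts, so effective fragments were estimated as the square of FPKM over its SD, taking the upper bound as 2 SD above FPKM.

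Tested rows had at least 1 FPKM in 2 or more libraries and a good status throughout (13685 rows, with 10 others dropped for status). A mean per group was fitted with limma 3.58.1 (R 4.3.3) on log2(FPKM + 1), with a trend and 3 residual degrees of freedom, two-sided and Benjamini-Hochberg adjusted over all tested rows. The fit was also run on simulated counts with a common spread for all genes, taken from well covered rows. That run cannot show how the fit performs where genes on few fragments spread more. Naive against primed averages the male and female naive means. Alternatives were a pseudocount of 0.1, no filter, a minimum of 5 FPKM, upper-quartile and median-of-ratios scaling, precision weights from the deposited bounds, a replicate block, each library left out, sex ignored, and both male naive libraries left out. All genes of the list are named, and called genes of the other pathway lists, except that some results are not reported here. The genes and lists were chosen with earlier results of these data known. No sequence file was used here, so none is printed.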

Additional observations from a re-analysis of the deposited data

How the results depend on the processing

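Of 142 values of called genes under the alternatives, 73 kept direction and call, 69 kept direction without the call and 0 reversed. For naive against primed lines, the 6 genes called were 2 with sex ignored, 3 without both male naive libraries and 0 to 4 on leaving out a library, and 4 to 7 under the other alternatives. The 1548 rows called overall were 941 with no filter, 812 with the replicate block, 250 with sex ignored, 625 without both male naive libraries and 177 to 1081 on leaving out a library. Within males, the 4 genes called were 2 with a pseudocount of 0.1, 0 with no filter, with precision weights or with the replicate block, and 0 to 2 on leaving out a library. The 738 rows called were 400 with no filter, 442 with precision weights, 373 with the replicate block and 51 to 626 on leaving out a library. For female against male naive lines, the 0 genes called were 0 to 1 on leaving out a library, and the 453 rows were 268 with no filter, 260 with precision weights, 207 with the replicate block and 41 to 523 on leaving out a library. The cause of these changes was not tested.

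The median log2 difference of all rows was 0.035, 0.09 and -0.104 in the 3 comparisons, and -0.057, -0.057 and 0.008 with upper-quartile scaling. Calls higher and lower were 920 and 628 for naive against primed lines (693 and 878 with upper-quartile scaling), 543 and 195 within males (391 and 357, or 418 and 255 with median-of-ratios scaling), and 104 and 349 between the sexes (106 and 219, or 114 and 219). The library numbers were not treated as pairs in the main fit. Deviations of libraries with the same number correlated at -0.06, -0.05 and -0.263 between groups, across genes. With donors not given, these values cannot show whether libraries shared a donor or a batch. Of the 31 genes, 14 were on under 20 effective fragments in at least 1 of the shallow male naive libraries, among which CASP8, GDF15 and BCL2L2 were called. TP53INP1, RRM2B, BCL2, BCL2L11, CASP8 and XIAP were also under 20 in at least 1 deeper library. For CASP8 that was 7.9 and 14.6 in primed 1 and 2. For these genes the limit is not confined to the male naive libraries.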

Other observations

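Of the genes in the other pathway lists, CYCS, PERP and TNFRSF1A were higher in naive lines and not called, and were chosen after their values were seen. CYCS, which encodes cytochrome c, measured 141 and 165 FPKM for male naive, 243 and 160 for female naive lines and 72.2 and 109 for primed lines, with no overlap between naive and primed (0.96 on the log2 scale, SE 0.23, limma adjusted p = 0.0505). PERP, a desmosome gene that p53 induces, measured 27.7 and 27.5, 55.6 and 27.7, and 2.64 and 14.4 FPKM in that order (2.18, SE 0.58, limma adjusted p = 0.062). Primed 2 was 5.47 times primed 1. TNFRSF1A, a receptor for tumour necrosis factor, differed by 0.65 (SE 0.17, limma adjusted p = 0.0588).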
